A study of Mus musculus with 8 samples.

Results

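Inhibitory and checkpoint receptors were followed as a set of 10 genes among the 30406 gene identifiers shared by all libraries. The set was a fixed list of names (Cd274, Lag3, Cd72, Lilrb4a, Pdcd1, Ctla4, Havcr2, Tigit, Cd200r1 and Sirpa), with no threshold on a measured value. The list was chosen with earlier results of these data known. Their transcripts were counted in 8 single-cell RNA-seq libraries of leukocytes sorted from C57BL/J mice (C57BL/6 in the study's methods, which give male wild-type animals). An anti-CD45 antibody injected into the blood marked circulating cells, and only CD45+ cells negative for that label (CD45iv-) were sorted, so the libraries hold tissue-resident leukocytes. One library each came from control brain, control pia and control dura. The title of the control pia sample names brain parenchyma, whereas its tissue and source labels give pia, and it was used as pia. The other 5 came from mice after transient middle cerebral artery occlusion (MCAO), a model of ischemic stroke: brain at 24 h in 2 libraries, brain at 72 h, pia at 24 h and dura at 24 h in 1 library each. By the study's methods the controls of the sequenced libraries were naive wild-type mice, although other passages call them sham-operated. Mice were pooled, with a total given for each compartment but not for each library. Only brain at 24 h was replicated, and p-values measure the spread between libraries, which may be technical. In the fits of time and tissue this spread also holds any difference between tissues in the change at 24 h. In the fits between cell classes it also holds differences between tissues and times.

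The authors assigned 32457 cells to 21 clusters (2810 to 6049 cells per library), and these cells held 66109854 transcript molecules, counted as unique molecular identifiers (UMIs), with 5743119 to 16202647 in a library and a median of 1083 to 2505 UMIs per cell. Levels are given as CPM, the UMIs of a gene scaled to a common total of all UMIs summed over the cells of a cluster in a library, and only sums of at least 30 cells were used. Intervals are exact Poisson 95% intervals and cover counting error only. UMIs of the members ranged from 64 for Tigit to 31639 for Lilrb4a over all annotated cells. The second brain library at 24 h and the brain library at 72 h stood apart. Both used a shorter gene list than the other 6 libraries, shared 8 cell barcodes with each other and 0 to 2 with any of the other 6, which shared 10 to 32 per pair. Results that rest on these 2 libraries are therefore given with and without them. The methods name an older and a newer kit chemistry. A sample list of the study gives the newer kit for brain at 72 h and dura at 24 h, another pair than the one set apart by barcodes and gene list, so which library had which kit was not settled, and fits without the listed pair were also made.

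Many inhibitory receptors carry short signalling motifs in their cytoplasmic tails that recruit phosphatases such as SHP-1 (Ptpn6), and so dampen signals from activating receptors on the same cell. Pdcd1 (PD-1), Ctla4, Lag3, Tigit and Havcr2 (TIM-3) are the checkpoint receptors best known from T cells, and Cd274 encodes PD-L1, the ligand that engages PD-1. Sirpa binds the "don't eat me" signal Cd47, Cd200r1 binds Cd200, Lilrb4a is an immunoglobulin-like receptor of myeloid cells, and Cd72 restrains the B cell receptor.

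**Figure D1:**
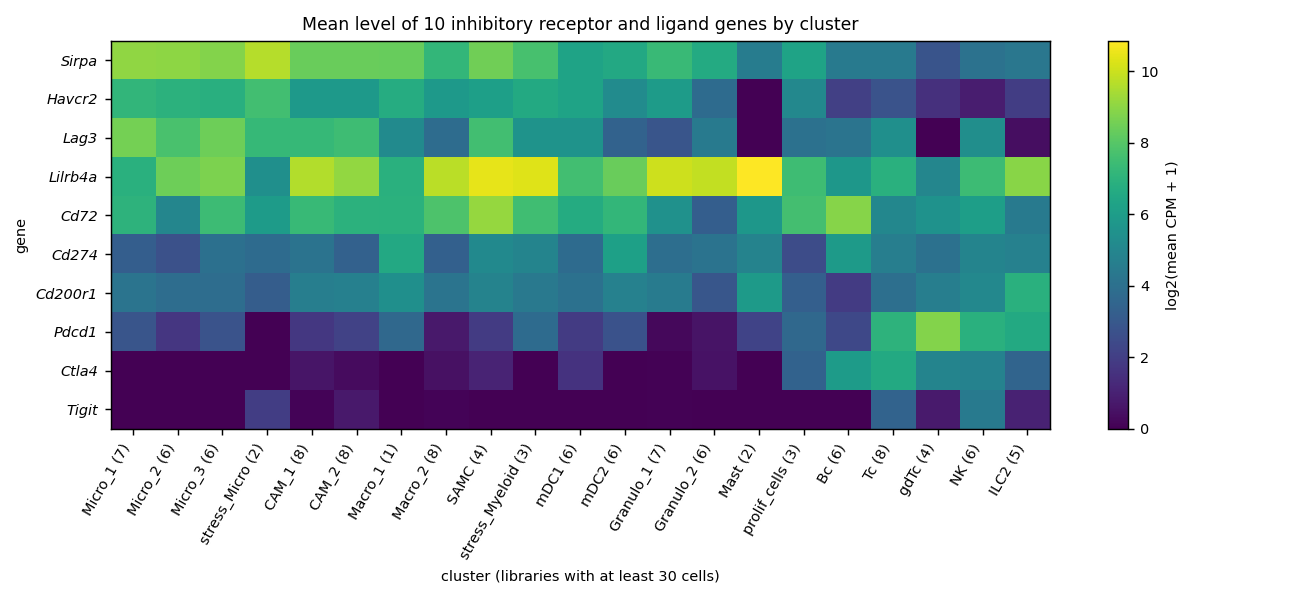
Mean level of the 10 members in each cluster named by the authors, as log2(mean CPM + 1) in colour, over libraries that held 30 or more of its cells (their number in brackets). Pdcd1, Ctla4 and Tigit have their highest means in lymphoid columns on the right, up to 452, 94.3 and 21.5 CPM, though not in each of these columns, and Sirpa and Havcr2 fill the microglia columns on the left, with means up to 804 and 187 CPM.

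Promoter sequences are shown for the members whose 250 bases before the annotated start held a searched motif, as context for the lineage levels below. RefSeq promoters (GRCm38.p6) were matched for 6 of the 10 members (Cd274, Cd72, Pdcd1, Ctla4, Havcr2 and Tigit). Capitals mark the motif in each line, which is written 5′ to 3′ on the strand of the gene.
Cd72 (chr4:43454627-43454876, minus strand): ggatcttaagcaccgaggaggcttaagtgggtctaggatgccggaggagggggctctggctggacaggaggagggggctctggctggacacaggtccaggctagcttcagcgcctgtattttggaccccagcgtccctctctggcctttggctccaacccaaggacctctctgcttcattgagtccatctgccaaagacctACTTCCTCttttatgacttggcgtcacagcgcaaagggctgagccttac
Havcr2 (chr11:46454681-46454930, plus strand): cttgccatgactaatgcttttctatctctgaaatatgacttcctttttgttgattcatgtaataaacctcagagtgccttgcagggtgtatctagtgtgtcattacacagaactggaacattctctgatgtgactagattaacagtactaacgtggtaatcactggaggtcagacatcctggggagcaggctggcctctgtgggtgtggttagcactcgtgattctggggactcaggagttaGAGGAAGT
Ctla4 (chr1:60908775-60909024, plus strand): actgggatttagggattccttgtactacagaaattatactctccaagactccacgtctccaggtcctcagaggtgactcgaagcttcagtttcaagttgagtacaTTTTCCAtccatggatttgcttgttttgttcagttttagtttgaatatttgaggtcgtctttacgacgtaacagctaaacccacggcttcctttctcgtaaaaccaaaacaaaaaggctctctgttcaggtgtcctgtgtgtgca

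The Cd72 window held GAGGAAGT, a motif of the myeloid and B cell factor PU.1, on its opposite strand, starting 49 bases before the start, and the Havcr2 window held it on the gene's own strand, ending at the start. That motif was found on either strand in 2.45% of all 32536 promoters of this length. The Ctla4 window held TGGAAAA, a motif of NFAT, the factor activated by calcium signalling in T cells, on its opposite strand, 145 bases before the start, and 5.90% of all promoters held it. The Ctla4 window lies before the RefSeq start but inside the gene as placed by GENCODE, whose span begins at base 60887000. Windows of Cd274, Pdcd1 and Tigit held none of the searched motifs, which included the STAT motif TTCNNNGAA (7.04% of promoters) and the interferon-stimulated response element (2.98%). A match describes letters only and no factor was measured here.

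In the lineage comparison, UMIs of B cell (Bc), T cell (Tc), natural killer (NK), gamma delta T cell (gdTc) and type 2 innate lymphoid cell (ILC2) clusters were summed as lymphoid, and those of microglia, macrophage, stroke-associated myeloid cell (SAMC), dendritic cell, granulocyte and mast cell clusters as myeloid. Of the 10 members, 3 were higher in lymphoid cells and 4 in myeloid cells. Calls were made with the quasi-likelihood test of edgeR, blocked by library, where the Benjamini-Hochberg adjusted p was under 0.05 and the level differed 2-fold or more. Of the 12068 genes tested, 12% were called higher in lymphoid cells and 20.1% lower. These same counts also defined the clusters, so the folds give the size of a difference between cell classes and do not test that the classes exist.

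Pdcd1 stood at 57.2 CPM in lymphoid cells of control brain, 101 and 25.7 CPM in the first and second brain libraries at 24 h, 22.3 CPM at 72 h, 177 and 179.9 CPM in control and 24 h pia, and 239 and 176 CPM in control and 24 h dura. Myeloid sums held 1.48 to 4.37 CPM of it. The difference was 4.93 ± 0.34 on the log2 scale (SE, adjusted p = 2.60e-07, edgeR), a 30.4-fold excess. Ctla4, which competes with the costimulatory receptor CD28 for its ligands, ran from 21.2 to 88.6 CPM in lymphoid sums and reached at most 0.746 CPM in myeloid sums (log2 difference 6.59 ± 0.45, adjusted p = 9.00e-11, edgeR). It was higher in lymphoid cells of 8 of 8 libraries. Tigit, a receptor for the poliovirus receptor Pvr, was the sparsest member with 64 UMIs in all. Lymphoid cells of control brain had none and the other 7 libraries held 4.46 to 10.7 CPM, against at most 0.376 CPM in myeloid cells (log2 difference 5.38 ± 0.77, adjusted p = 1.09e-06, edgeR).

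Sirpa and Havcr2 were carried by myeloid cells. Myeloid Sirpa was 717 CPM in control brain, 435 and 511 CPM at 24 h, 263 CPM at 72 h, 184 and 126 CPM in control and 24 h pia, and 99.0 and 97.7 CPM in control and 24 h dura, against 4.35 to 45.7 CPM in lymphoid cells (log2 difference −4.25 ± 0.23, adjusted p = 7.46e-11, edgeR). Myeloid Havcr2, known as a T cell checkpoint but also made by phagocytes, ran in the same order of libraries at 159, 129.7, 117, 79.2, 36.9, 36.0, 40.3 and 30.4 CPM, and lymphoid sums held 0 to 6.68 CPM (log2 difference −4.16 ± 0.31, adjusted p = 3.63e-10, edgeR). In these sums both genes were therefore highest in brain libraries. Microglia were 3733 of 4225 myeloid cells in control brain, 293 of 2515 in control pia and 51 of 1650 in control dura. In dendritic cells alone Havcr2 was 37.3 to 53.8 CPM in brain and 38.7 to 79.1 CPM in pia and dura. Sirpa there was 100.2 to 151 CPM in brain and 36.0 to 75.7 CPM in pia and dura. The part of the cluster mix in the order of tissues was not tested. The sum of 4 microglia markers (Tmem119, P2ry12, Sall1 and Sparc) in lymphoid cells was 136 to 834 CPM in the brain libraries and 3.14 to 33.4 CPM in pia and dura, and its part in the lymphoid values was not tested.

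Lag3, which binds class II antigen-presenting molecules, was also higher in the myeloid sums. Of its myeloid UMIs, microglia clusters held 4196 of 4610 in control brain, 245 of 298 in control pia and 12 of 106 in control dura. Its myeloid level ran over a wide range, with 671 CPM in control brain, 427 and 74.0 CPM in brain at 24 h, 18.0 CPM at 72 h, 55.2 and 41.0 CPM in control and 24 h pia, and 25.7 and 22.0 CPM in control and 24 h dura. Lymphoid Lag3 was 8.91 to 68.6 CPM, so the classes overlapped between libraries although myeloid cells were above lymphoid cells within each of the 8 (log2 difference −1.57 ± 0.38, adjusted p = 0.00660, edgeR). In both dura libraries this gap was small, 25.7 against 25.3 CPM in controls and 22.0 against 20.4 CPM at 24 h. Without the 2 libraries that stood apart Lag3 was still called (−1.37, adjusted p = 0.0478), as were Pdcd1, Ctla4, Tigit, Havcr2 and Sirpa. Between T cells alone and macrophages the log2 difference was −0.32 (adjusted p = 0.767, edgeR), at 10.8 to 89.4 CPM in T cells and 4.24 to 585 CPM in macrophages. T cells were above macrophages in control and 24 h pia (52.5 against 10.6 and 28.0 against 20.7 CPM). The same held in control and 24 h dura (74.5 against 10.6 and 44.6 against 18.7 CPM) and brain at 72 h (11.1 against 4.24 CPM). They were below macrophages in control brain (24.8 against 585 CPM) and at 24 h (89.4 against 414 and 10.8 against 54.6 CPM). These T cell values rest on 1 to 27 UMIs each.

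Lilrb4a was lower in lymphoid cells (log2 difference −2.07 ± 0.58, adjusted p = 0.0252, edgeR), but the call was lost when any of 6 single libraries was left out (adjusted p = 0.0507 to 0.0723) and without the 2 libraries that stood apart (−2.18, adjusted p = 0.0809). Myeloid Lilrb4a was 14.3 CPM in control brain, where lymphoid cells held 149 CPM, and 69.3 to 1424 CPM in the other 7 libraries, each above its lymphoid sum. Lilrb4a has a close neighbour, Lilr4b, whose transcript has 73.0% identity over its aligned length and an identical run of 241 bases. Over the last 400 bases, near where reads of a 3′ library fall, the identity was 51.8%. Whether reads of the pair were told apart in full was not tested, and the ratio of Lilrb4a to Lilr4b UMIs was 0.525 and 0.495 in the 2 libraries that stood apart against 1.81 to 3.96 in the other 6. Summing both genes gave a log2 difference of −1.92 (adjusted p = 0.0298), and −1.95 (adjusted p = 0.116) without these 2 libraries.

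Cd274, Cd72 and Cd200r1 were not called between the lineages. For Cd274 the lymphoid excess passed the p threshold at a fold of 1.74, under the fold set for a call (log2 difference 0.80 ± 0.19, adjusted p = 0.00206, edgeR). Cd72 differed by −0.16 ± 0.39 and Cd200r1 by 0.31 ± 0.20 on the log2 scale (adjusted p = 0.792 and 0.218, edgeR). Cd72 had its highest means in SAMC and B cells, 569 and 466 CPM. Cd200r1 had its highest in ILC2 (117 CPM), with means of 2.69 to 59.7 CPM in the other clusters.

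**Figure D2:**
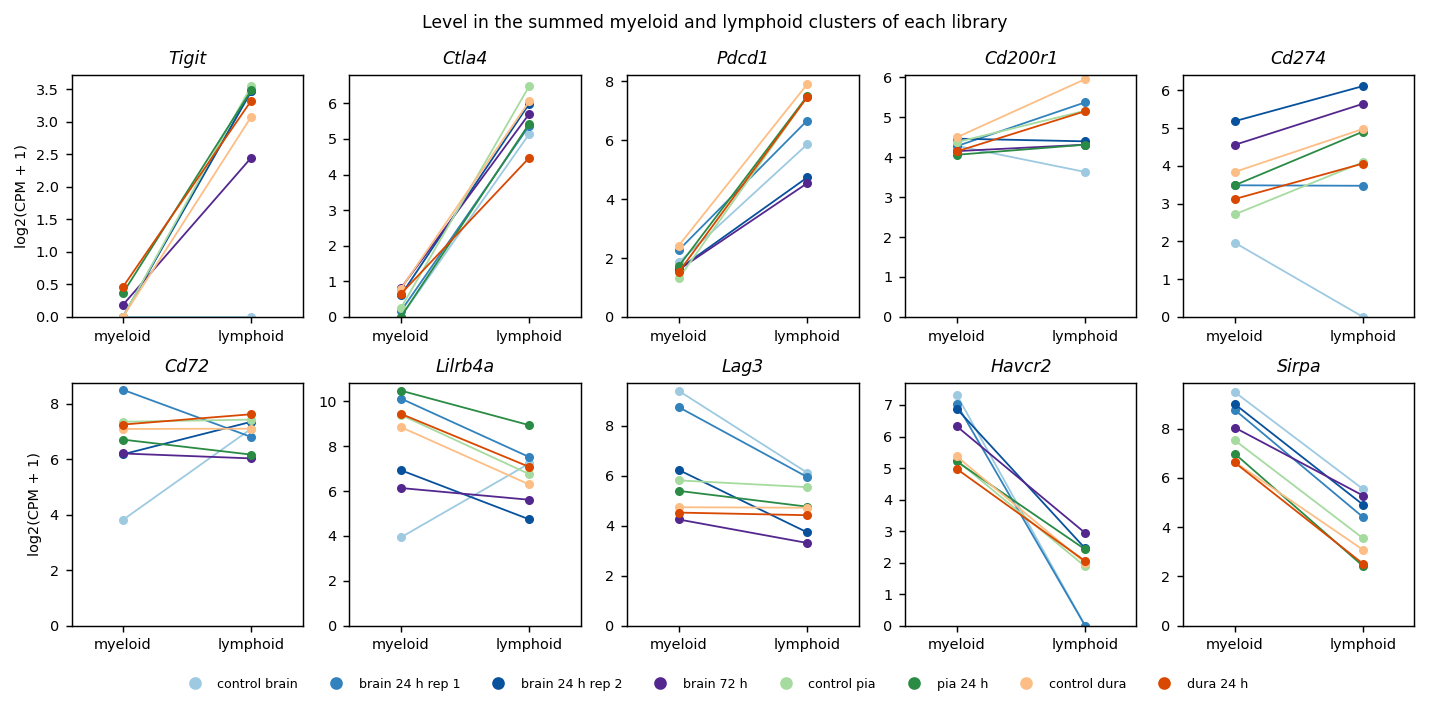
Level of each member in the summed myeloid and lymphoid clusters, as log2(CPM + 1), with 1 point per library and class and a line joining both classes of a library. Lines of Pdcd1, Ctla4 and Tigit rise to the lymphoid side except for Tigit in control brain, which is at 0 in both classes, and lines of Havcr2 and Sirpa fall in all 8 libraries.

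Within the lymphoid clusters, Pdcd1 was highest in gamma delta T cells. It reached 826 CPM (95% interval 709 to 956) in control dura and 685 CPM in dura at 24 h, with 297 CPM in pia at 24 h and no UMI among 41 cells of brain at 72 h, a mean of 452 ± 375 CPM (SD, n = 4 libraries). Tc came next at 127 ± 91.5 CPM (n = 8), then NK cells at 118 ± 118 CPM (n = 6) and ILC2 at 96.0 ± 68.8 CPM (n = 5). These means lay within their spread of each other, and ILC2 lay above the next cluster by more than its SD. B cells held 3 Pdcd1 UMIs over 6 libraries. NK cells split by library, with 276 and 255 CPM in control and 24 h pia and 13.1 to 84.1 CPM in the other 4.

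Ctla4 was highest in Tc, at 94.3 ± 58.3 CPM (n = 8), with 199 CPM in control dura and 42.9 CPM in dura at 24 h at the ends of the range. B cells followed at 60.4 ± 108 CPM (n = 6), a mean that rested on control pia. There 60 B cells held 21 Ctla4 UMIs (281 CPM), while the other 5 libraries had 3.66 to 30.4 CPM. These 60 cells held 127 UMIs of the B cell gene Cd79a and none of the T cell genes Cd3e and Trbc2 or of Foxp3, the regulatory T cell factor. Tigit was found mainly in NK cells (21.5 ± 11.5 CPM, 21 UMIs, n = 6) and Tc (10.0 ± 9.26 CPM, 33 UMIs, n = 8). B cells had 0 Tigit UMIs in each of 6 libraries, which at the depth of 438 cells in dura at 24 h has an upper 95% limit of 5.10 CPM.

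Cd200r1, the receptor for Cd200, led in ILC2 with 57.5 CPM in brain at 72 h, 139.7 and 69.6 CPM in control and 24 h pia, and 214 and 103 CPM in control and 24 h dura (117 ± 63.1 CPM, n = 5). Control values were the higher of the pair in both border tissues. Mast cells of dura held 34.9 and 84.4 CPM and NK cells 32.1 ± 14.9 CPM (n = 6), whereas B cells held at most 13.4 CPM. Cd72 was a B cell gene among lymphocytes, at 466 ± 171 CPM (n = 6, from 178 to 668 CPM) against 31.2 ± 13.3 CPM in Tc (n = 8, from 18.7 to 49.6 CPM).

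**Figure D3:**
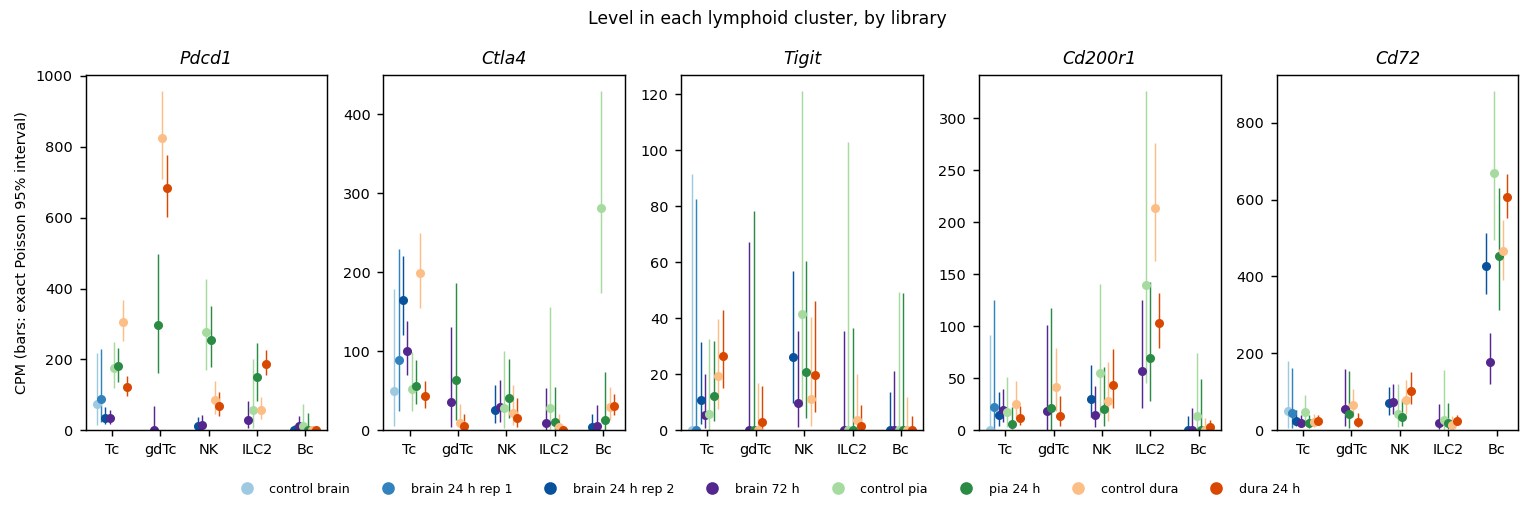
Levels of Pdcd1, Ctla4, Tigit, Cd200r1 and Cd72 in each lymphoid cluster, in CPM, with 1 point per library and its exact Poisson 95% interval as a bar. The gamma delta T cell points of Pdcd1 reach 826 CPM in control dura, and a single B cell point of Ctla4 lies at 281 CPM in control pia.

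Among myeloid clusters, Sirpa, Havcr2 and Lag3 led in microglia by CPM. Sirpa was 804 ± 205 CPM in stress_Micro (n = 2), the authors' name for a stressed microglia cluster, 536 ± 286 CPM in Micro_1 (n = 7) and 359 ± 179 CPM in SAMC (n = 4). Havcr2 was 187 ± 45.0 CPM in stress_Micro (n = 2) and 139 ± 70.6 CPM in Micro_1 (n = 7), and no neighbours among these lay apart by more than its SD. When levels were taken as UMIs per cell instead of CPM, stress_Micro fell to rank 6 for Sirpa and rank 9 for Havcr2. SAMC then led for Sirpa (1.02 UMIs per cell) and Macro_1 for Havcr2 (0.247, from 1 library). The label of the microglia clusters held in brain and less well elsewhere. Their 4 microglia markers summed to 3001 to 13634 CPM in brain, 4928 and 2036 CPM in control and 24 h pia, and 805 and 397 CPM in control and 24 h dura, where Sall1 was at 0. The 4 markers of macrophages and monocytes (Lyz2, Apoe, Ccr2 and Ly6c2) in the same cells summed to 768 to 4575 CPM in brain, 8969 to 12186 CPM in pia and 31519.8 and 36993 CPM in dura, from 51 and 76 cells. Their part in the values of pia and dura was not tested. Lag3 in all microglia clusters together was 687 CPM in control brain, 463 and 144 CPM in brain at 24 h, 122 CPM at 72 h, 456 and 228 CPM in control and 24 h pia, and 182 and 135 CPM in control and 24 h dura.

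Lilrb4a was found in every myeloid class and varied widely between libraries. Mast cells had the highest mean (1592 CPM in control dura and 2114 CPM in dura at 24 h), followed by SAMC at 1394 ± 1519.5 CPM (n = 4), the cluster stress_Myeloid at 1278 ± 1221 CPM (n = 3) and the granulocyte cluster Granulo_1 at 1041 ± 942 CPM (n = 7). In Granulo_1 it was 2559 CPM in the first brain library at 24 h and 120.2 CPM in the second. The 2 libraries that stood apart were the low ones in each of Granulo_1, Macro_2 and SAMC.

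SAMC are the cluster that the authors named for its appearance after stroke, and the marker Spp1 was 33.5-fold higher there than in the macrophage clusters CAM_1, CAM_2, Macro_1 and Macro_2 (adjusted p = 3.36e-09, edgeR). In the 4 libraries with at least 30 SAMC, Cd72 was 1431 and 554 CPM in the first and second brain libraries at 24 h, 29.9 CPM in brain at 72 h and 260.3 CPM in pia at 24 h. Lilrb4a followed the order 3376, 382, 41.7 and 1776 CPM and Lag3 494, 111, 3.47 and 142 CPM. All 3 genes were lowest at 72 h and highest in the first brain library at 24 h. Lilr4b, the neighbour of Lilrb4a, was 1856, 731, 165 and 822 CPM in the same order. Against macrophages of the same library, 0 of the 7 members tested were called, where 0.398% of 9557 genes were called higher and 1.95% lower. Lag3 differed by 0.93 ± 0.37 (adjusted p = 0.315, edgeR) and Cd72 by 0.77 ± 0.60 (adjusted p = 0.741, edgeR) on the log2 scale. DESeq2 called 0 of these members as well. Lag3 was called when the first brain library was left out (1.32, adjusted p = 6.59e-04) and Cd72 when brain at 72 h was left out (1.42, adjusted p = 0.00923), and neither was called without both libraries that stood apart (adjusted p = 0.525 and 0.120). The fit without the first brain library called 58 of 9304 genes higher, and that without brain at 72 h called 35 of 8190. Among other inhibitory receptors, 3 of 17 tested were lower in SAMC, namely Siglecg (−3.25 ± 0.95, adjusted p = 0.00724), the sialic acid receptor Cd33 (−1.38 ± 0.27, adjusted p = 0.00370) and Btla (−2.79 ± 0.97, adjusted p = 0.0392). Ciita, the master regulator of class II genes and so of the Lag3 ligand, was 36.9-fold lower in SAMC (adjusted p = 2.74e-07). The calls of these 4 genes were lost without the 2 libraries that stood apart, where edgeR called 0 genes lower, and without the library block, where it called 0 genes in all. At an unadjusted p under 0.05 there were 689 and 123 genes in these fits.

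Cd274 was low in most clusters. Dendritic cells of the cluster mDC2 held 153 CPM in the second brain library at 24 h, 124 CPM in brain at 72 h and 29.2 to 40.4 CPM in the 4 pia and dura libraries. B cells showed the same split, with 157 and 155 CPM in these brain libraries and 0 to 13.8 CPM in the other 4. The brain libraries with enough of these cells were the 2 that stood apart, so tissue and library set cannot be told apart for Cd274 in B cells and mDC2. In macrophage clusters, which every library held, Cd274 was 6.05 CPM in control brain, 12.9 and 36.8 CPM in brain at 24 h, 21.6 CPM at 72 h and 2.20 to 10.1 CPM in pia and dura. The cluster Macro_1 had the highest mean of all, 93.6 CPM, from 1 library and 16 UMIs, and ranked 3 when sums of 10 cells were allowed.

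Ligands and other members of these pathways were counted from fixed lists in the lineage comparison. There 12% of the 12068 genes tested were called higher in lymphoid cells and 20.1% lower. Of 13 ligands and partners, 11 were tested, 1 was higher in lymphoid cells and 5 were lower, with a median log2 difference of −0.88 beside −0.08 over all genes. Cd80 and Cd86, the shared ligands of CD28 and CTLA-4, were lower in lymphoid cells by 3.81 ± 0.35 and 2.86 ± 0.20 on the log2 scale (adjusted p = 4.24e-09 and 2.94e-09, edgeR). Cd80 was highest in dendritic cells (77.1 ± 45.6 CPM, n = 7) and Cd86 stood at 300.1 ± 120.4 CPM in macrophages and 297 ± 59.7 CPM in microglia (n = 8 each). In SAMC Cd86 was 403 ± 310.2 CPM (n = 4). Pdcd1lg2, the other PD-1 ligand, was higher in lymphoid cells (3.23 ± 0.46, adjusted p = 9.50e-05), at 30.5 ± 22.2 CPM in Tc (n = 8) and 12.3 ± 9.64 CPM in dendritic cells (n = 7). Nectin2, a TIGIT ligand, was 28.7 ± 13.2 CPM in microglia and at most 1.12 CPM in any lymphoid sum (−4.25 ± 0.75, adjusted p = 6.53e-07). Cd47, the SIRPα ligand, was not called and was highest in dendritic cells (608 ± 105 CPM, n = 7), above microglia at 153 ± 56.9 CPM (n = 8). Cd200 was found in dendritic cells at 19.8 to 306 CPM, against at most 7.49 CPM in microglia.

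Of 25 other inhibitory receptors, 24 were tested, 8 were higher and 13 lower in lymphoid cells (median −2.16). Beside this and the next lists, 12% of all 12068 genes tested were called higher and 20.1% lower. The NK and T cell receptors Klrc1 (8.33 ± 0.70), Cd96 (8.23 ± 0.83), Klra7 (7.81 ± 0.61) and Klrg1 (7.74 ± 0.81) had the largest excess in lymphoid cells. Pilra (−5.12 ± 0.57), Cd300a (−4.98 ± 0.30), Siglece (−4.95 ± 0.39) and Pirb (−4.72 ± 0.26) had the largest in myeloid cells. All 8 costimulatory counterparts were higher in lymphoid cells (median 5.58), among them Cd28 (7.40 ± 0.63) and Icos (6.56 ± 0.26). Of 7 tested regulatory and exhausted T cell genes, Tox (7.46 ± 0.49), Eomes, Il2ra and Ikzf2 were higher and the cytokine Il10 was lower (−2.39 ± 0.37). Of 7 phosphatases and adaptors, Sh2d1a was higher (8.27 ± 0.60) and Ptpn6 was lower (−1.19 ± 0.20). Of 8 interferon-gamma genes beside Cd274, Ifng was higher (8.67 ± 0.51) and Cxcl9, Ifngr2, Cxcl10 and Ciita were lower. These genes passed the edgeR test at an adjusted p of 0.0402 or less, and values with ± are log2 differences with their SE.

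Macrophage clusters of brain had higher values of Lag3, Havcr2 and Sirpa than those of pia and dura in most libraries. None of the 3 passed the adjusted p threshold with all libraries. Lag3 was 585 CPM in control brain, 414 and 54.6 CPM at 24 h and 4.24 CPM at 72 h, against 10.6 and 20.7 CPM in control and 24 h pia and 10.6 and 18.7 CPM in control and 24 h dura. The brain library at 72 h was thus the lowest of all. The log2 difference between brain and the mean of pia and dura, with time in the fit, was 4.07 ± 0.77 (adjusted p = 0.0525, edgeR). Havcr2 was 71.9 to 157 CPM in brain and 23.9 to 28.0 CPM in pia and dura (1.57 ± 0.32, adjusted p = 0.0515, edgeR). Sirpa was 248 to 611 CPM in brain and 124 to 169 CPM in pia and dura (1.27 ± 0.30, adjusted p = 0.0746, edgeR). Of the 10887 genes tested, 1.09% were called higher in brain and 1.59% lower. DESeq2 called all 3 (adjusted p = 2.91e-06, 0.00254 and 0.00328), as did the fit without the 2 libraries that stood apart (4.66, 1.66 and 1.37 on the log2 scale, adjusted p = 4.11e-05, 0.00128 and 0.00113). These fits called more genes of every kind. DESeq2 called 360 of 10887 genes higher in brain and 589 lower. The fit without the 2 libraries called 1016 of 9421 genes higher and 1228 lower.

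Microglia transcripts were also higher in macrophage clusters of brain. The 4 microglia markers summed to 9641 CPM in macrophage clusters of control brain, 2351 and 494 CPM at 24 h and 238 CPM at 72 h, against 127 to 216 CPM in pia and dura, where Sall1 was at 0 in both dura libraries. Lag3 had the same order over the brain libraries. Havcr2 went from 76.7 to 89.2 CPM and Sirpa from 367 to 391 CPM from the first to the second brain library at 24 h, while the markers fell. In the cluster Macro_2 alone the brain difference was 0.31 ± 0.78 for Lag3, 0.53 ± 0.40 for Havcr2 and 0.13 ± 0.40 for Sirpa (adjusted p = 0.878, 0.540 and 0.901, edgeR), whereas in CAM_1 alone it was 4.27, 3.50 and 1.56 (adjusted p = 0.00917, 0.00417 and 0.0390). In CAM_2 alone it was 3.34, 2.64 and 1.16 in the same order (adjusted p = 0.120, 0.00965 and 0.0864), so of the 3 Havcr2 was called. Over all genes tested, 235 of 8718 were called higher in brain in CAM_1 alone, 104 of 6508 in CAM_2 alone and 9 of 9666 in Macro_2 alone. Border macrophage markers moved the other way. The 4 of them (Pf4, Mrc1, Lyve1 and Cd163) summed to 83.1 CPM in macrophage clusters of control brain, 10.1 and 355 CPM at 24 h and 224 CPM at 72 h, against 1985 to 2810.2 CPM in pia and dura, and 2 of the 4 were called lower in brain (median log2 difference −5.40). Pf4 in CAM_1 was 31.5 CPM in control brain and 4.66 CPM in the first brain library at 24 h, against 2277 to 4077 CPM in pia and dura. The brain cells of these macrophage clusters thus held little of these markers. In control brain P2ry12 was 5033 CPM in CAM_1 and 6038 CPM in CAM_2, beside 7265 CPM in the microglia clusters. For brain, macrophage is therefore used here as the name of the clusters only. The part of both marker sets in the values of the whole macrophage class was not tested. Lilrb4a was at 67.3 to 1941 CPM in brain and 573 to 1576 CPM in pia and dura, and of the alternatives run it was called lower in brain only when the first library at 24 h was left out (−3.36, adjusted p = 0.0331). That fit called 118 of 10819 genes lower. From the lists, Il10 was lower in macrophage clusters of brain (−6.67 ± 0.87, adjusted p = 0.0126, edgeR). That call was lost when control brain or any of the 4 pia and dura libraries was left out, and without dura at 24 h and brain at 72 h, fits in which edgeR called 0 genes, with 1015 to 1362 at an unadjusted p under 0.05.

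**Figure D4:**
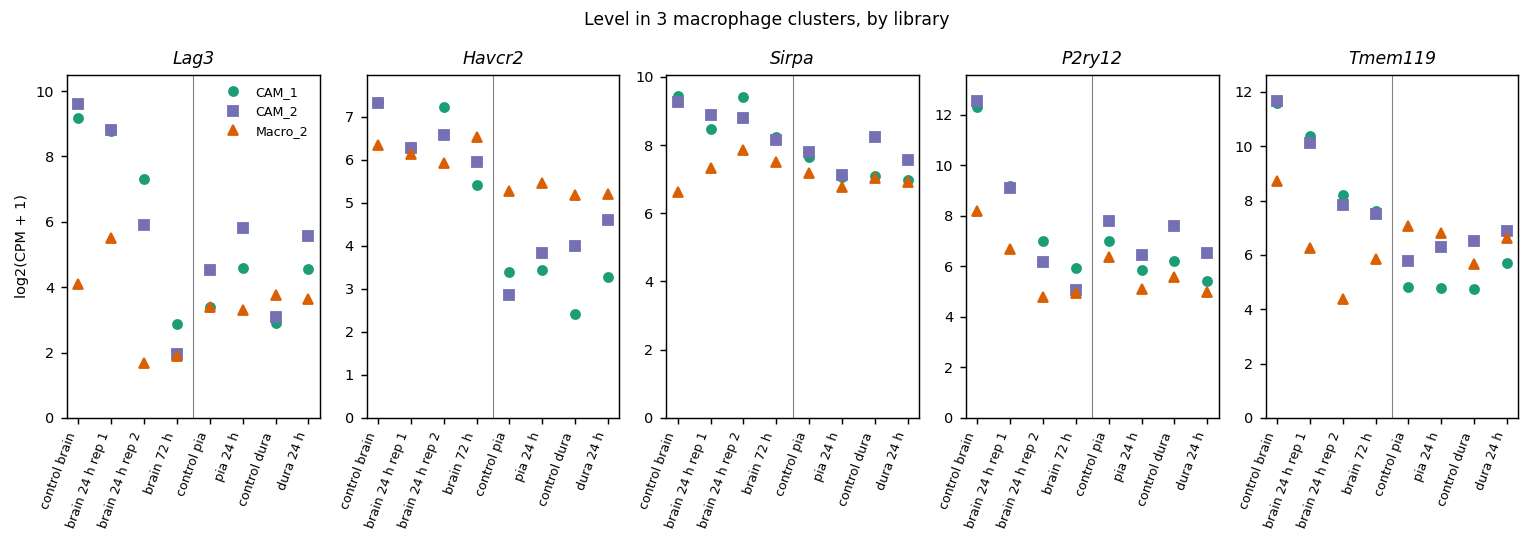
Levels of Lag3, Havcr2, Sirpa and the microglia markers P2ry12 and Tmem119 in the macrophage clusters CAM_1, CAM_2 and Macro_2 of each library, as log2(CPM + 1), with a grey line between the brain libraries and those of pia and dura. In control brain and the first brain library at 24 h the CAM_1 and CAM_2 points of Lag3, P2ry12 and Tmem119 lie far above those of Macro_2, where Lag3 was 16.1 and 44.2 CPM.

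Pdcd1 in T cells had its lower values in brain. It was 74.4 CPM in control brain, 89.4 and 35.9 CPM at 24 h and 33.3 CPM at 72 h, against 175 and 180.4 CPM in control and 24 h pia and 306 and 122 CPM in control and 24 h dura. The difference was not called (−1.67 ± 0.51, adjusted p = 0.144, edgeR), with 0.267% of 6361 genes called higher and 0.377% lower in brain. It was called without the first brain library at 24 h (−1.93, adjusted p = 0.0174), a fit that called 356 of 6305 genes higher and 168 lower in brain. Without the 2 libraries that stood apart it was not called (−1.32, adjusted p = 0.303, edgeR). The brain values rest on 3 to 12 UMIs each in Tc, and the 6 T cell markers summed to 3277 to 7095 CPM in every library, lowest in the 2 that stood apart. The 4 microglia markers in Tc summed to 93.3 to 669.8 CPM in brain and 0 to 29.2 CPM in pia and dura.

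At 24 h after MCAO, Lilrb4a and Cd72 were above control brain in the summed macrophage clusters and the microglia clusters of brain. No gene was called over all tissues, in fits whose spread includes differences between tissues in the change at 24 h. Lilrb4a in macrophages was 78.6 CPM in control brain and 1941 and 185 CPM at 24 h, 24.7 and 2.35 times the control (95% counting intervals 18.8 to 33.1 and 1.71 to 3.28). In pia it went from 766 to 1576 CPM, 2.06 times (1.97 to 2.15), and in dura from 573 to 798 CPM, 1.39 times (1.30 to 1.49). All 4 libraries at 24 h were thus above their control, by sizes that differed. The neighbour Lilr4b in the same clusters was 18.1 CPM in control brain and 942 and 401 CPM at 24 h. It was 343 and 613 CPM in control and 24 h pia and 258 and 359 CPM in dura. Per library, Lilrb4a UMIs per Lilr4b UMI were 3.96 in control brain and 2.06 and 0.525 at 24 h. The part of this shift in the sizes for Lilrb4a was not tested. Over tissues the log2 difference of Lilrb4a was 1.70 ± 0.90 (adjusted p = 0.984, edgeR), and that of both genes summed was 1.77 (adjusted p = 0.985, edgeR). In microglia clusters Lilrb4a was 66.4 and 15.5 times the control in brain, 3.16 times in pia and 0.985 times in dura, where microglia markers were low (2.21 ± 0.80, adjusted p = 1.00). In dendritic cells, which were too few in control brain, it was 2.25 times in pia and 1.83 times in dura.

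Markers of other cell classes also had other levels at 24 h in the same cells. The 4 SAMC markers (Spp1, Gpnmb, Fabp5 and Lpl) in macrophage clusters summed to 65.0 CPM in control brain and 3276 and 1679 CPM at 24 h, 73.4 and 800.4 CPM in control and 24 h pia, and 104 and 168 CPM in control and 24 h dura. In microglia clusters they went from 11.1 CPM in control brain to 578 and 589 CPM, while the 4 microglia markers went from 13634 to 7879 and 3001 CPM. Over tissues the median log2 difference of the 4 neutrophil markers (S100a8, S100a9, Csf3r and Retnlg) was 1.78 in macrophages and 3.01 in microglia, and 0 of them were called in either (edgeR). Their sum in brain was 156 CPM in control macrophages and 107 and 133 CPM at 24 h, and 192 CPM in control microglia and 258 and 363 CPM at 24 h. For 4 tested markers of red blood cells and of non-immune cells of the brain and vessels (Hbb-bs, Snap25, Cldn5 and Mbp, of which Cldn5 was too sparse for a usable SE) the median was 2.32 in macrophages and 4.80 in microglia, with 0 called. The part of these markers in the values of Lilrb4a and Cd72 was not tested.

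Cd72 in the summed macrophage clusters of brain was 42.3 CPM in the control and 583 and 138 CPM at 24 h. These were 13.8 and 3.26 times the control beyond counting error (9.48 to 20.8 and 2.15 to 5.11). It was 166 and 127 CPM in control and 24 h pia and 211 and 210.4 CPM in dura (0.79 ± 0.76 over tissues, adjusted p = 0.984, edgeR). By cluster, brain Cd72 in the control and at 24 h was 10.5, 661 and 304 CPM in CAM_1. It was 25.5, 385 and 147 CPM in CAM_2. In Macro_2 it was 275, 335 and 44.1 CPM, where the second library lay below the control. From control to 24 h pia, Cd72 went from 35.1 to 54.0 CPM in CAM_1 and from 37.8 to 125 CPM in CAM_2. In Macro_2 of pia it went from 246 to 202 CPM. In brain microglia it was 9.34 CPM in the control and 107 and 44.8 CPM at 24 h. Lag3 in microglia was below its control in all 4 libraries at 24 h, by ratios of 0.674 and 0.210 in brain, 0.501 in pia and 0.739 in dura, of which the interval in dura (0.337 to 1.68) included 1. Over tissues Lag3 was not called in microglia (adjusted p = 1.00, edgeR). In T cells of dura, Pdcd1 and Ctla4 were 0.399 and 0.216 times the control (0.293 to 0.540 and 0.132 to 0.343), and in pia 1.03 and 1.07 times. In brain the ratios were 1.20 and 0.482 for Pdcd1 and 1.80 and 3.33 for Ctla4, from 3 and 2 UMIs in the control, with intervals that all included 1. By the sample list of kits the dura libraries differed in kit, in which case kit and time cannot be told apart there. By barcodes and gene list they were alike, with 17 shared cell barcodes and the same longer list. The part of the kit was not tested. Ctla4 in T cells was called lower at 24 h only without the second brain library (−1.36 ± 0.32, adjusted p = 0.00354).

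Of the genes tested at 24 h, edgeR called 0% in macrophage (10887 genes), microglia (10213), T cell (6361) and dendritic cell (9023) clusters in either direction, so 0 members could be read against a background. At an unadjusted p under 0.05 there were 468, 223, 106 and 218 genes, and DESeq2 called 17, 7, 0 and 2. Without the second brain library the edgeR counts were 239, 197, 28 and 151, and without both libraries that stood apart 136, 141, 10 and 93. In that last fit Lilrb4a in dendritic cells passed the p threshold (0.96 ± 0.21, adjusted p = 0.0217), at a log2 difference under the 1 set for a call, as did Lag3 (−0.80 ± 0.18, adjusted p = 0.0126) and Sirpa (−0.83 ± 0.18, adjusted p = 0.00881) in microglia.

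**Figure D5:**
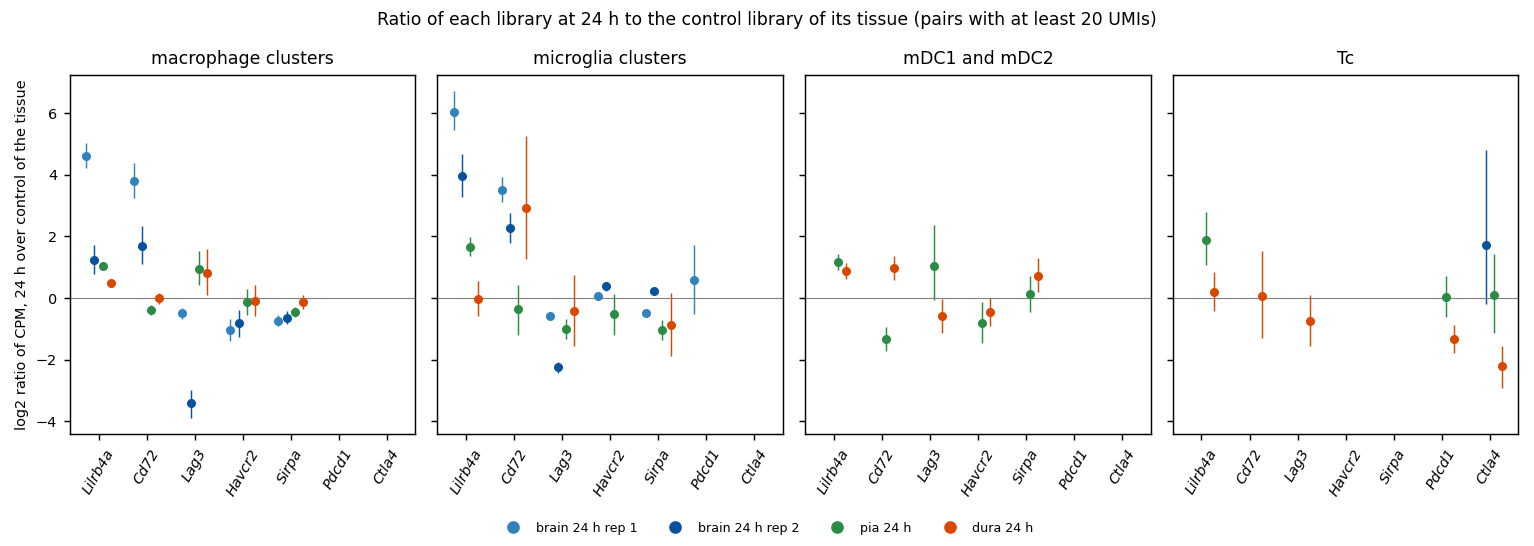
Log2 ratio of the CPM at 24 h to that of the control of the same tissue for 7 members in macrophages, microglia, dendritic cells and T cells, with 1 point per library at 24 h, exact 95% counting intervals as bars and only pairs with at least 20 UMIs drawn. Lilrb4a points in macrophages lie at ratios between 1.39 and 24.7, and Pdcd1 and Ctla4 points of dura T cells lie at 0.399 and 0.216.

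Brain at 72 h had 1 library, so no test against 24 h was made, and time and library cannot be told apart. Its nearest counterpart by gene list was the second library at 24 h. In the summed macrophage clusters Lag3 was 4.24 CPM at 72 h beside 54.6 CPM in that library, Lilrb4a 67.3 beside 185 CPM, Cd72 75.4 beside 138 CPM, Sirpa 248 beside 391 CPM and Havcr2 71.9 beside 89.2 CPM. Macro_2 made up 570 of these 1497 cells at 72 h and 93 of 356 in that library. In Macro_2 alone Cd72 (166 beside 44.1 CPM) and Havcr2 (91.3 beside 59.5 CPM) were higher at 72 h. Sirpa was lower there (181 beside 229 CPM). In CAM_1 and CAM_2, Cd72 and Havcr2 were lower at 72 h. In dendritic cells Cd72 was 229 CPM at 72 h beside 76.4 CPM. T cells at 72 h held 33.3 CPM of Pdcd1 beside 35.9 CPM, and 36 UMIs of Ctla4 in 249 cells (95% interval 70.0 to 138 CPM) beside 46 UMIs in 133 cells (165 CPM, 121 to 220.2).

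The genes with the most similar levels over 112 sums per library and cluster are given as a description, since these sums share libraries, depth and cell types. Ctla4 went with the lymphocyte genes Gimap4, Cd2 and Sh2d2a (Pearson's r of log2(CPM + 1) 0.88, 0.88 and 0.87) and Pdcd1 with Cd96, Zap70 and the gamma chain gene Tcrg-C4 (0.81, 0.81 and 0.79). Sirpa went with Cd300c2, Lamp2 and Grn (0.89, 0.89 and 0.85), Havcr2 with Mpeg1, Cebpa and Cds1 (0.84, 0.83 and 0.83), and Lag3 with Plpp1, Serpine2 and the microglia marker P2ry12 (0.74, 0.71 and 0.71). For Lilrb4a the closest were Lilr4b, Sod2 and Cebpb (0.89, 0.75 and 0.70). Cd274 (Malt1, 0.60), Cd72 (Hmgn1, 0.54) and Cd200r1 (Klf9, 0.49) had no close companion, and Tigit was too low for the comparison.

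On GRCm38 the members are spread over 8 chromosomes, and 4 of them overlap another annotated gene. These are Cd274 (chr19:29367455-29388095, plus strand), Cd72 (chr4:43446462-43454628, minus strand, with Tesk1), Lilrb4a (chr10:51490956-51496611, plus strand) and Ctla4 (chr1:60887000-60915832, plus strand, with the pseudogene Rpl18-ps1). For Cd274 and Cd72 the overlapping gene lies on the opposite strand, and for Lilrb4a (with Gm49339) and Ctla4 on the same strand, where reads in the shared stretch may not be told apart. Lag3 (chr6:124904361-124911705, minus strand), Pdcd1 (chr1:94038305-94052553, minus strand), Havcr2 (chr11:46454935-46481255, plus strand), Tigit (chr16:43648867-43664146, minus strand), Cd200r1 (chr16:44765736-44794978, plus strand) and Sirpa (chr2:129592835-129632228, plus strand) overlap none.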

How the data were processed

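UMI counts per gene and cell barcode were deposited by the authors for each of the 8 libraries as raw, unnormalized counts, made with Cell Ranger 6.0 on mm10, each library alone; the annotation version is not given in the sources used here. The authors filtered cells by gene number and mitochondrial share, removed doublets, integrated the libraries, clustered the cells and named the clusters by hand. Their deposited table of library and cluster per cell was used as it stands, and 6.42% to 20.2% of a library's barcodes carried no cluster and stayed out of the comparisons.

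From these counts, UMIs were summed per library and cluster or class, and genes were matched by Ensembl ID over the 30406 IDs of both gene lists. Sums of at least 30 cells were tested with edgeR 4.0.16 in R 4.3.3 (filterByExpr, TMM, robust quasi-likelihood F test, Benjamini-Hochberg adjustment over all genes tested). The lineage and SAMC comparisons had the library as a block, and the comparisons of time and tissue had both as factors, with 72 h on a coefficient of its own. A call needed a 2-fold difference as well as an adjusted p under 0.05, and log2 differences carry Wald standard errors. Totals of 5743119 to 16202647 UMIs per library set the precision, and intervals for single sums are exact Poisson intervals. The scripts were tested on simulated data. Of the fixed microglia markers, 1 is not reported here and is left out of their sums.

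Alternatives were DESeq2 1.42.0, scaling by library size, no filter on low counts, sums of 10 cells, no library block, and leaving out each library. Leaving out the 2 libraries with the shorter gene list, summing Lilrb4a with Lilr4b and taking single macrophage clusters were chosen after seeing the data. All members, gene lists and rules for naming genes were chosen with earlier results of these data known, so the lists are descriptions. Named list genes were those called, at most 5 per list and comparison by size, apart from Pilra, Cd300a, Siglece, Pirb and the ligands with levels, which were named after their values were seen. Similar genes were the 3 with the highest Pearson correlation among genes of at least 5 CPM on average. Gene positions are from GENCODE on GRCm38 and promoters from RefSeq GRCm38.p6.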

Additional observations from a re-analysis of the deposited data

Results flagged for a closer look

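In summed clusters, effects at 24 h pointed in opposite directions between tissues for Lag3 and Cd72, and the differences between tissues were not tested. In macrophage clusters Lag3 was 0.707 and 0.0933 times its control in the first and second brain libraries, and 1.94 and 1.77 times its control in pia and dura, with counting intervals that excluded 1 in all 4. In Macro_2 alone Lag3 was 9.57 and 8.92 CPM in control and 24 h pia and 12.5 and 11.4 CPM in control and 24 h dura. In Macro_2 of brain it was 16.1 CPM in the control and 44.2 and 2.20 CPM at 24 h. In CAM_1 and CAM_2 of pia and dura it was higher at 24 h than in the control. In the summed macrophage clusters the 4 microglia markers (Tmem119, P2ry12, Sall1 and Sparc) went from 9641 CPM in control brain to 2351 and 494 CPM, from 216 to 128 CPM in pia and from 127 to 141 CPM in dura, and their part in the Lag3 values was not tested. Cd72 in macrophage clusters was 13.8 and 3.26 times its control in brain and 0.762 times in pia. In Macro_2 alone, brain Cd72 was 275 CPM in the control and 335 and 44.1 CPM at 24 h. In control and 24 h pia, Cd72 was 246 and 202 CPM in Macro_2, 35.1 and 54.0 CPM in CAM_1 and 37.8 and 125 CPM in CAM_2. The pia clusters thus did not all go the way of their sum. In dendritic cells Cd72 was 0.398 times its control in pia and 1.96 times in dura. Each tissue has 1 control library, so these intervals cover counting error only.

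In brain and pia at 24 h, barcodes that the authors left without a cluster also held Lilrb4a above the level of such barcodes in the control. It was 1046 and 39.1 CPM in the first and second brain libraries at 24 h against 18.4 CPM in control brain, and 1242 CPM in pia at 24 h against 593 CPM in control pia. In dura the intervals overlapped, with 271 CPM (251 to 292) at 24 h against 233 CPM (206 to 263) in the control.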

How the results depend on the processing

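For the comparisons of time and tissue no paired analysis was possible, because no groups compared share 2 replicate numbers: only brain at 24 h has 2 libraries. The lineage and SAMC comparisons were paired within each library by the library block. Of 867 member values under alternatives, 822 kept their direction or were never called and stayed uncalled, 9 lost a call (8 of them Lilrb4a between lineages) and 36 gained one (27 of them Lag3, Havcr2 or Sirpa in brain macrophages). No called value changed sign, and 79 uncalled ones did. The causes were not tested.

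Counts of genes called moved by more than 1.5 times as follows. Between lineages there were 3878, and 2436 without the library block; scaling by library size gave 2190 higher and 1924 lower in place of 1447 and 2431, with a median over all genes of 0.26 in place of −0.08. For SAMC against macrophages there were 224, with DESeq2 125, without the filter 346, with sums of 10 cells 353, without the block 0, without the 2 libraries that stood apart 1, and 134 to 356 with 1 library left out. At 24 h edgeR called 0 genes in macrophages, and DESeq2 17, no filter 70, CAM_2 alone 1, Macro_2 alone 2, without both libraries 136, and up to 239 with 1 library left out. In microglia 0 became 7 with DESeq2, 16 without the filter, 141 without both libraries and 9 to 197 with 1 left out. In T cells 0 became 1 without the filter, 10 without both and 1 to 28 with 1 left out. In dendritic cells 0 became 2 with DESeq2, 5 without the filter, 1 without dura at 24 h and brain at 72 h, 93 without both and 1 to 156 with 1 left out. For brain macrophages against pia and dura 292 became 949 with DESeq2, 1198 without the filter, 0 without dura at 24 h and brain at 72 h, 2244 without both, 619 in CAM_1 alone (2141 without both), 1022 in CAM_2 alone without both, 36 in Macro_2 alone and 0 to 2391 with 1 left out. Library size alone gave 306 higher and 105 lower there in place of 119 and 173, with a median over all genes of 0.63 in place of 0.15. For T cells 41 became 86 with library size, 150 without the filter, 7 without dura at 24 h and brain at 72 h, and 0 to 524 with 1 left out.

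The highest cluster changed for 5 members. Macro_1 ranked 3 for Cd274 with sums of 10 cells and 2 by UMIs per cell, Mast ranked 2 and 3 for Lilrb4a under these settings, and by UMIs per cell Micro_1 ranked 2 for Lag3, stress_Micro 9 for Havcr2 and 6 for Sirpa. Tigit, with 64 UMIs, and Ctla4, with 344, were too sparse for values in small clusters to be precise.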
